A study of Homo sapiens with 12 samples.

Results

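The 14-3-3 proteins are small acidic adaptors that pair into dimers and hold partner proteins at short motifs carrying a phosphorylated serine or threonine. Binding can mask a localization signal, lock an enzyme in an active or inactive form, or bring kinases of a cascade together. The human family is encoded by 7 genes: *YWHAZ* (14-3-3ζ), *YWHAQ* (14-3-3τ, also called θ), *YWHAB* (14-3-3β), *YWHAG* (14-3-3γ), *YWHAH* (14-3-3η), *YWHAE* (14-3-3ε) and *SFN* (14-3-3σ, stratifin). 14-3-3ζ is known to bind GR that carries a phosphate on Ser134, and it also holds MAP3K5 (ASK1), a kinase at the head of the p38 cascade.

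The 7 genes were taken by symbol from the RNA-seq profiles, which list 19907 symbols, and all 7 were among the 18579 symbols with enough reads to be tested. MDA-MB-231, a human TNBC line in wide use, has GR but no estrogen receptor. The S134A-GR cells were clone #1, in which CRISPR knock-in replaced Ser134 of GR with alanine, and the wt-GR cells were a non-targeted clone from the same procedure. Because each line is a single clone, the GR mutation and other differences between the clones cannot be told apart. Starvation in IMEM with 1% DCC, a stripped serum low in steroids, lasted 18 h in every group. Vehicle or 10 ng/mL TGFβ1 was then given for 6 h, and the 4 groups had 3 replicates each. The labels do not say that the replicates were separate cultures, so the p-values measure the spread between these samples, which may be technical.

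The genes share a coding stretch near the start of the reading frame, shown here because it marks the family and bears on whether reads can be told apart between members. The 45 bases of 6 members are printed 5′ to 3′ on the coding strand of hg38, with a capital at each of the 29 positions where those 6 are identical, and 28 of the 45 were identical in all 7 genes.
YWHAQ, chr2:9630294-9630338, minus strand: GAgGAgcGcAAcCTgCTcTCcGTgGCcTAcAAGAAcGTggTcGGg
YWHAB, chr20:44901654-44901698, plus strand: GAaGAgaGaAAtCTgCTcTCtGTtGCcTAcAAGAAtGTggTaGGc
YWHAG, chr7:76330159-76330203, minus strand: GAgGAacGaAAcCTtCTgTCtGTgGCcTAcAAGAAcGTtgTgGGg
YWHAH, chr22:31956169-31956213, plus strand: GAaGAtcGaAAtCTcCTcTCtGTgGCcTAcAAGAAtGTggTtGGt
YWHAE, chr17:1364961-1365005, minus strand: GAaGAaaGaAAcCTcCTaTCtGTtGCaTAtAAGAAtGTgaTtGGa
SFN, chr1:26863327-26863371, plus strand: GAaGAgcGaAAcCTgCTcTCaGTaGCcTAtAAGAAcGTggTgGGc

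Outside such stretches the reading frames differ. Their identity in pairwise alignment ran from 61.2% between YWHAE and SFN to 78.5% between YWHAG and YWHAH, the longest identical run was 39 bases, and no pair shared a stretch of 75 bases, the read length used. The codon that the knock-in changed, AGT for Ser134 of GR, is given in capitals within 45 coding bases of the reference NR3C1 gene, chr5:143400417-143400461, minus strand of hg38.
NR3C1: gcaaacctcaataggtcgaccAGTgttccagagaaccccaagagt

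The libraries held 56362036 to 129832227 reads. In every one, VIM, CD44, EGFR, AXL and CAV1, which mark mesenchymal-like breast cancer cells, and NR3C1 were present, the lowest value being 8336 normalized counts for NR3C1. ESR1 did not exceed 7.32 normalized counts and CDH1 did not exceed 12.5, where 3 reads equal up to 4.89. ERBB2 (7229 to 10589) and EPCAM (318 to 1093) were measured at higher levels than these.

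All 7 genes were detected in all 12 libraries, and their levels differed widely. Levels of different genes were compared as normalized counts per kb of exon in the reference annotation. In wt-GR cells under vehicle YWHAZ stood highest at 25325 ± 429 (SD, n = 3) per kb, followed by YWHAQ (16973 ± 322), SFN (15067 ± 446), YWHAB (8555 ± 107), YWHAG (6655 ± 150), YWHAH (5981 ± 226) and YWHAE (1109 ± 1669). Among the 17687 genes with a known exon length, YWHAZ ranked between 80 and 111 from the top in the 12 libraries. In each group no 2 neighbours in the order overlapped across their 3 libraries. The order between the ends depends on the length used. In wt-GR vehicle cells YWHAZ was first and YWHAE last by each length, but per kb of the canonical transcript YWHAB (22399) came ahead of YWHAQ (20876) and SFN (15067), and per kb of coding sequence SFN (26489) came after YWHAG (33275).

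In S134A-GR cells SFN and YWHAQ exchanged places per kb of exon. Under vehicle SFN was at 15487 ± 854 and YWHAQ at 10448 ± 314 per kb, and the same order held under TGFβ1 (13965 ± 248 and 11133 ± 607). Per kb of the canonical transcript SFN also had the higher mean in these cells (15487 against 12851 under vehicle, 13965 against 13694 under TGFβ1). Under TGFβ1 the libraries overlapped by this length, with SFN at 14060, 14151 and 13683 and YWHAQ at 14518, 13500 and 13062. Per kb of coding sequence it did not, with YWHAQ above SFN (38394 against 27228 under vehicle, 40913 against 24551 under TGFβ1). YWHAZ made up 31.8 ± 1.25% of the summed level per kb of the 7 genes in wt-GR vehicle cells and 36.3 ± 0.395% in S134A-GR vehicle cells, while the share of YWHAQ was 21.3 ± 0.303% and 15.4 ± 0.0588%. The summed level of the 6 genes without YWHAE, whose own values are described separately, was 78556 ± 515 per kb in wt-GR and 67624 ± 1757 in S134A-GR cells under vehicle. The percent difference between the lines was -13.9%, and under TGFβ1 the sums were 77782 ± 1307 and 66871 ± 2406. Without YWHAZ as well, the sum of the other 5 differed by -19.1% under vehicle and -19.8% under TGFβ1. TGFβ1 moved the sum of 6 by -0.985% in wt-GR and -1.11% in S134A-GR cells, with no test made on any of the sums.

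**Figure D1:**
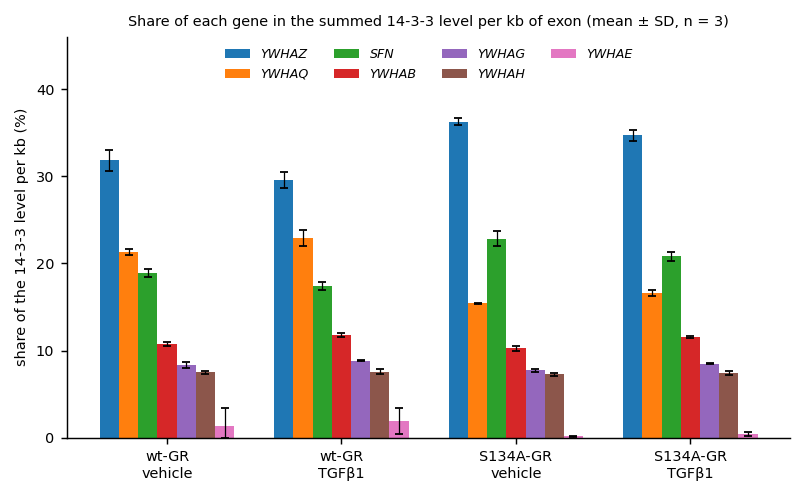
Share of each gene in the summed level per kb of exon of the 7 genes, in percent (vertical axis), for the 4 groups (horizontal axis), with bars for the mean and error bars for the SD of 3 libraries. YWHAZ has the tallest bar in each group, and SFN stands above YWHAQ in both S134A-GR groups and below it in both wt-GR groups.

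The first comparison asks whether the genes differ between cells with and without the Ser134 site. Under vehicle 4 of the 7 were lower in S134A-GR cells (YWHAQ, YWHAG, YWHAB and YWHAH), none was called higher, and YWHAZ, SFN and YWHAE were not called. A call is an adjusted p under 0.05 in limma, fitted to log2 of the normalized count plus 1 with Benjamini-Hochberg adjustment over all tested genes. The background is high, because 51.5% of all tested genes were called in this comparison, 4651 of 18579 as higher and 4918 (26.5%) as lower, so the count of members is not by itself particular to the family. The median log2 fold change of the 7 was -0.30, against 0.02 over all tested genes. No member was called with a change of 1 or more in size on the log2 scale, in any comparison. Of all genes 9.51% were under vehicle, 8.46% between the lines under TGFβ1, 2.29% and 1.66% for TGFβ1 in wt-GR and S134A-GR cells, and 0.0592% for the difference in response.

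YWHAQ had the largest of the called differences among the 7. 14-3-3τ is known for partners in cell cycle control and apoptosis. Its normalized counts were 44856, 46181 and 46494 in wt-GR vehicle replicates 1 to 3, and 28231, 29063 and 27366 in the S134A-GR vehicle replicates. Under TGFβ1 they were 49116, 51193 and 46940 in wt-GR cells and 31883, 29647 and 28684 in S134A-GR cells. Every S134A-GR library lay below every wt-GR library. The log2 fold change was -0.70 (SE 0.04, limma adjusted p = 1.26e-08) under vehicle and -0.71 (SE 0.04, adjusted p = 1.25e-08) under TGFβ1, a level of 0.616 and 0.613 times that of wt-GR.

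YWHAB encodes a form known for binding RAF kinases. It was at 66704, 68356 and 67872 in wt-GR vehicle libraries and at 54143, 55421 and 55210 in S134A-GR vehicle libraries. The groups did not overlap, and the log2 fold change was -0.30 (SE 0.03, limma adjusted p = 1.97e-06). Under TGFβ1 the values were 72372, 75086 and 74155 against 63527, 60360 and 60544, again without overlap, with a log2 fold change of -0.27 (SE 0.03, adjusted p = 7.25e-06).

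YWHAG, whose product is known to hold the phosphatase CDC25 in its phosphorylated form, showed a like difference. It was at 24715, 25181 and 24074 in wt-GR and 18987, 20224 and 19208 in S134A-GR vehicle libraries, and its log2 fold change was -0.34 (SE 0.04, limma adjusted p = 1.78e-06). Under TGFβ1 the log2 fold change was -0.30 (SE 0.04, adjusted p = 6.69e-06). YWHAH encodes a form abundant in brain that has also been found with GR. It was at 13702, 14467 and 14748 in wt-GR and 11841, 11720 and 11699 in S134A-GR vehicle libraries, with a log2 fold change of -0.28 (SE 0.04, adjusted p = 1.65e-05). The 3 S134A-GR values lay close together and below the lowest wt-GR value. Under TGFβ1 its log2 fold change was -0.27 (SE 0.04, adjusted p = 3.23e-05).

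The same 4 genes were called lower in S134A-GR cells under TGFβ1, where 48.8% of all genes were called, 23.1% as higher and 25.7% as lower. The 2 comparisons use different libraries of the same clones and a shared estimate of the spread, so they are not independent. In each of them those 4 genes were the members whose groups did not overlap, as was the case for 57.3% of all genes under vehicle and 55.6% under TGFβ1. The 4 calls held when each library was left out in turn, under both treatments.

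YWHAZ, the form that binds GR phosphorylated at Ser134, did not differ detectably between the lines. Its normalized counts were 217545, 219884 and 212691 in wt-GR vehicle libraries and 207920, 216424 and 206455 in S134A-GR vehicle libraries, and the ranges overlapped. Its log2 fold change was -0.04 (95% interval -0.13 to 0.05, limma adjusted p = 0.412) under vehicle and -0.01 (-0.10 to 0.08, adjusted p = 0.878) under TGFβ1. Both intervals exclude a difference as large as that of YWHAQ.

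SFN encodes 14-3-3σ, the epithelial form, which holds cyclin B-CDK1 in the cytoplasm after DNA damage. It was at 19748, 19105 and 20270 in wt-GR and 20989, 20811 and 18972 in S134A-GR vehicle libraries, with overlapping ranges. The log2 fold change was 0.04 (95% interval -0.05 to 0.13, limma adjusted p = 0.465), and 0.02 (-0.07 to 0.11, adjusted p = 0.765) under TGFβ1. With YWHAQ lower and YWHAZ not called, the ratio of the YWHAZ level to the YWHAQ level, each per kb of exon, was 1.49 ± 0.0444 in wt-GR and 2.35 ± 0.0283 in S134A-GR vehicle cells.

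**Figure D2:**
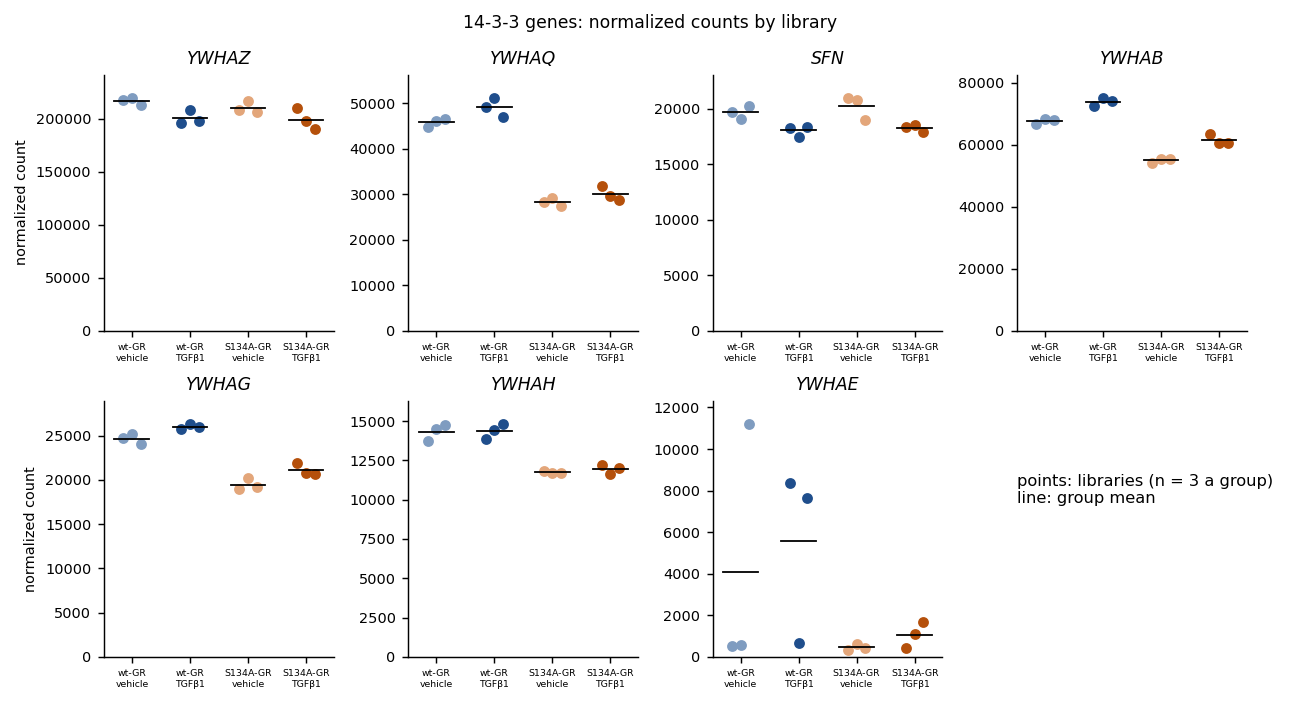
Normalized counts (vertical axis, from 0) of the 7 genes in the 12 libraries, by group (horizontal axis), with a point for each library and a line for the group mean. In YWHAQ, YWHAB, YWHAG and YWHAH the S134A-GR points lie below the wt-GR points of the same treatment, and in YWHAE 3 wt-GR libraries stand far above the other 9.

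The genes next to each member on its chromosome were measured as well. YWHAQ lies on chromosome 2 (hg38, chr2:9583967-9630997, minus strand). Of the 50 tested genes nearest to it, 25 on each side over 18.1 Mb, 36 were called lower in S134A-GR cells under vehicle and 0 were called higher, by limma. Their median log2 fold change was -0.62, beside -0.70 for YWHAQ, and 22 of the 50 had a lower value than YWHAQ. With 10 genes on each side, over 3.77 Mb, the median was -0.50. Under TGFβ1 34 of the 50 were lower and 1 was higher, with a median of -0.55. The part that this stretch of chromosome 2 has in the YWHAQ difference was not tested.

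The neighbours of the other members had medians nearer 0. Under vehicle the median was -0.06 around YWHAB (16 of 50 lower and 12 higher), -0.03 around YWHAG (13 lower and 12 higher), -0.15 around YWHAH (22 lower and 8 higher), 0.07 around YWHAZ (13 lower and 12 higher) and 0.08 around SFN (5 lower and 11 higher). Around YWHAE it was -0.17 (12 of 34 lower and 3 higher). YWHAB, YWHAG and YWHAH each lay below the median of their neighbours, but within their spread. Of the 50 neighbours, 15, 15 and 20 had a lower value than YWHAB, YWHAG and YWHAH.

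**Figure D3:**
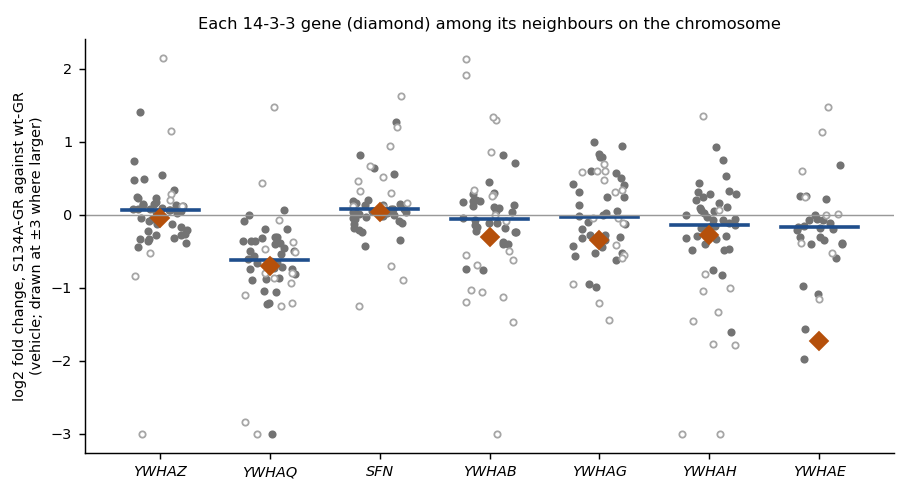
Difference of S134A-GR from wt-GR cells under vehicle (vertical axis, log2 fold change, values beyond 3 in size drawn at 3) for each 14-3-3 gene (diamond) and its neighbours on the chromosome (filled circles for a mean of at least 100 normalized counts, open circles below), with a line at the neighbours' median. Around YWHAQ the line is at -0.62, close to the diamond, and around the other 6 genes it lies between -0.18 and 0.08.

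Some reads of these genes could have more than 1 origin. Of all 75-base stretches in the exons of YWHAQ, 20.8% also occur elsewhere on the primary chromosomes of hg38, mostly on chromosome 22 (20.2%), and for YWHAZ 10.6% occur elsewhere. For YWHAB the share was 0.0788%, and for YWHAG, YWHAH and SFN no stretch was found elsewhere. How the counting treated reads with several matches is not given in the sources used here, so the levels of YWHAQ and YWHAZ are uncertain to that extent.

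The second question was how the genes respond to TGFβ1. In wt-GR cells 2 of the 7 were called, where 21.0% of all tested genes were (11.2% up and 9.82% down): YWHAB rose and SFN fell. In S134A-GR cells 3 were called, where 18.7% of all genes were (10.0% up and 8.69% down): YWHAB and YWHAG rose and SFN fell. The groups did not overlap for 5 of the 7 in wt-GR and 3 of the 7 in S134A-GR cells, as for 33.9% and 35.6% of all genes. The median log2 fold change of the 7 was 0.08 in wt-GR and 0.09 in S134A-GR cells, against -0.00459 and -0.00972 over all tested genes.

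YWHAB rose in both lines, from a mean of 67644 to 73871 normalized counts in wt-GR and from 54925 to 61477 in S134A-GR cells. Every TGFβ1 library stood above every vehicle library of its line. The log2 fold change was 0.13 (SE 0.03, limma adjusted p = 0.00964) in wt-GR and 0.16 (SE 0.03, adjusted p = 0.00202) in S134A-GR cells, and both calls held with each library left out. The level in S134A-GR cells after TGFβ1 was still below the vehicle level of wt-GR cells in each library.

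SFN fell in both lines. In wt-GR cells it went from the 3 vehicle values given earlier to 18308, 17483 and 18366, a log2 fold change of -0.13 (SE 0.04, limma adjusted p = 0.0423). In S134A-GR cells it went to 18391, 18510 and 17898, a log2 fold change of -0.15 (SE 0.04, adjusted p = 0.0215). In neither line did the groups overlap. The call in wt-GR cells was close to the threshold. It was lost when wt-GR vehicle replicate 1 or 3, any of the 3 wt-GR TGFβ1 replicates or S134A-GR TGFβ1 replicate 2 was left out (adjusted p 0.0531 to 0.151), and in S134A-GR cells it was lost without S134A-GR vehicle replicate 1 or 2 or TGFβ1 replicate 3 (0.0725 to 0.106).

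YWHAG was at 25713, 26304 and 25964 in wt-GR and 21909, 20831 and 20617 in S134A-GR cells under TGFβ1. All 6 values lay above the vehicle values of the same line. The log2 fold change of 0.12 in S134A-GR cells was called (SE 0.04, limma adjusted p = 0.0312), while that of 0.08 in wt-GR cells was not (SE 0.04, adjusted p = 0.149). The call in S134A-GR cells was lost without S134A-GR vehicle replicate 1 or 3 or TGFβ1 replicate 1 or 2 (adjusted p 0.0512 to 0.132).

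YWHAZ was at 195948, 208201 and 197566 in wt-GR and at 210362, 197617 and 190123 in S134A-GR cells under TGFβ1. In wt-GR cells these values lay below the vehicle values, but the log2 fold change of -0.11 (95% interval -0.20 to -0.02) was not called (limma adjusted p = 0.0755). Without S134A-GR TGFβ1 replicate 1, which enters only through the shared estimate of spread, the adjusted p was 0.0482, and with only genes of a mean of at least 100 normalized counts tested it was 0.0447. In S134A-GR cells the groups overlapped and the log2 fold change was -0.08 (-0.17 to 0.01, adjusted p = 0.237). YWHAQ had log2 fold changes of 0.10 (adjusted p = 0.135) and 0.09 (adjusted p = 0.178), and YWHAH of 0.01 (adjusted p = 0.922) and 0.02 (adjusted p = 0.726), in wt-GR and S134A-GR cells, none of them called.

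The third question was whether the response to TGFβ1 differs between the lines. Limma called 0 of the 7 genes for this difference, and 0 had an unadjusted p under 0.05, where 0.414% of all genes were called. The quasi-likelihood test of edgeR and the Wald test of DESeq2 on the recovered reads also called 0. Without YWHAE, the differences ran from -0.02 (SFN, 95% interval -0.15 to 0.10) to 0.04 (YWHAG, -0.07 to 0.15) on the log2 scale. For YWHAZ the difference was 0.03 (-0.09 to 0.16).

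**Figure D4:**
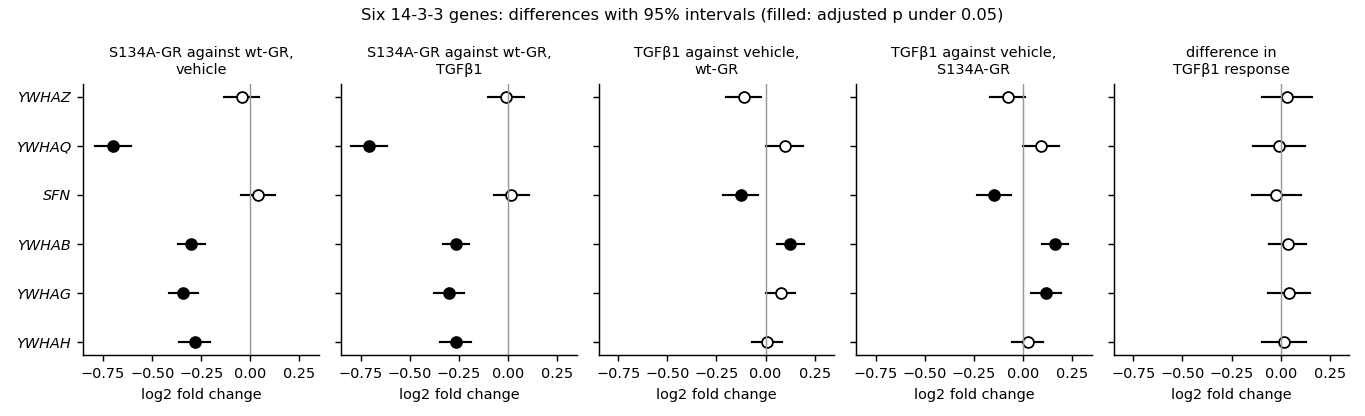
Log2 fold changes (horizontal axis) of 6 genes (rows) in the 5 comparisons (panels), with 95% intervals from limma, filled where the adjusted p is under 0.05. YWHAQ stands at -0.70 and -0.71 in the panels that compare the lines, YWHAB lies right of 0 and SFN left of 0 in both TGFβ1 panels, and all 6 intervals cross 0 in the last panel. YWHAE is left out because its intervals span several log2 units.

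YWHAE could not be compared with any precision. It is the most distant of the 7 in coding sequence, each of its 6 pairwise identities being below that of every pair without it (at most 65.0% against at least 65.5%). Its product is known to bind CDC25 phosphatases, and the gene lies near the end of the short arm of chromosome 17 (hg38, chr17:1344275-1400222, minus strand). It was at 510, 560 and 11199 in wt-GR vehicle libraries, 8371, 680 and 7624 in wt-GR TGFβ1 libraries, 346, 607 and 417 in S134A-GR vehicle libraries and 430, 1080 and 1684 in S134A-GR TGFβ1 libraries. So 3 wt-GR libraries, from both treatments, stood at 7624 or above and the other 9 at 1684 or below.

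This spread sets the limits of its tests. The SD of YWHAE within groups was 1.72 on the log2 scale, more than that of all but 27 of the 12468 genes with a mean of at least 100 normalized counts, whereas the other 6 members had SDs of 0.0278 to 0.0562 against a median of 0.0728. Its log2 fold change was -1.73 (SE 1.07, limma adjusted p = 0.198) under vehicle and -1.93 (SE 1.07, adjusted p = 0.157) under TGFβ1. Without wt-GR vehicle replicate 3 the first value was -0.27. Without wt-GR TGFβ1 replicate 2 the second was -3.11 and was called (adjusted p = 0.0244), as it was without wt-GR vehicle replicate 3 (adjusted p = 0.0420). On the recovered reads edgeR and DESeq2 called it lower in the vehicle-treated S134A-GR cells (-3.19 and -3.17 on the log2 scale, adjusted p = 0.0243 and 0.0160). Its responses to TGFβ1, 1.25 in wt-GR and 1.05 in S134A-GR cells (adjusted p = 0.476 and 0.576), were not called, although the former was 2.72 (adjusted p = 0.0281) without wt-GR vehicle replicate 3.

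The exons of YWHAE also exist on an alternate scaffold of hg38. All 3164 of its 75-base stretches were found there, while none of those of the other 6 members were on any alternate scaffold. Among the 25 neighbours with a mean of at least 100 normalized counts, 2 others had all their stretches on such a scaffold. These were PRPF8, a core splicing factor, and TIMM22, a mitochondrial import gene, with SDs within groups of 1.79 and 2.67. In 17 neighbours with under 1 percent of their stretches there, the SD ran from 0.0245 to 0.239. The 6 with a share in between ran from 0.0529 to 1.45, and several with a high share had a low SD, such as WDR81 (91.6% and 0.081) and CRK (88.9% and 0.129).

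The libraries in which these genes were high were not the same ones. PRPF8 was highest in S134A-GR TGFβ1 replicate 2 (2900), wt-GR vehicle replicate 1 (2878) and wt-GR TGFβ1 replicate 3 (2563), and TIMM22 in wt-GR TGFβ1 replicate 3 (889) and wt-GR vehicle replicate 1 (363). PITPNA, a neighbour with no stretch on an alternate scaffold, stayed between 9412 and 11378. Whether the authors' index held the alternate scaffolds is not given in the sources used here, and their part in the YWHAE values was not tested. The pseudogene YWHAEP1 was listed at 426 to 705 in the 12 libraries and did not follow YWHAE.

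**Figure D5:**
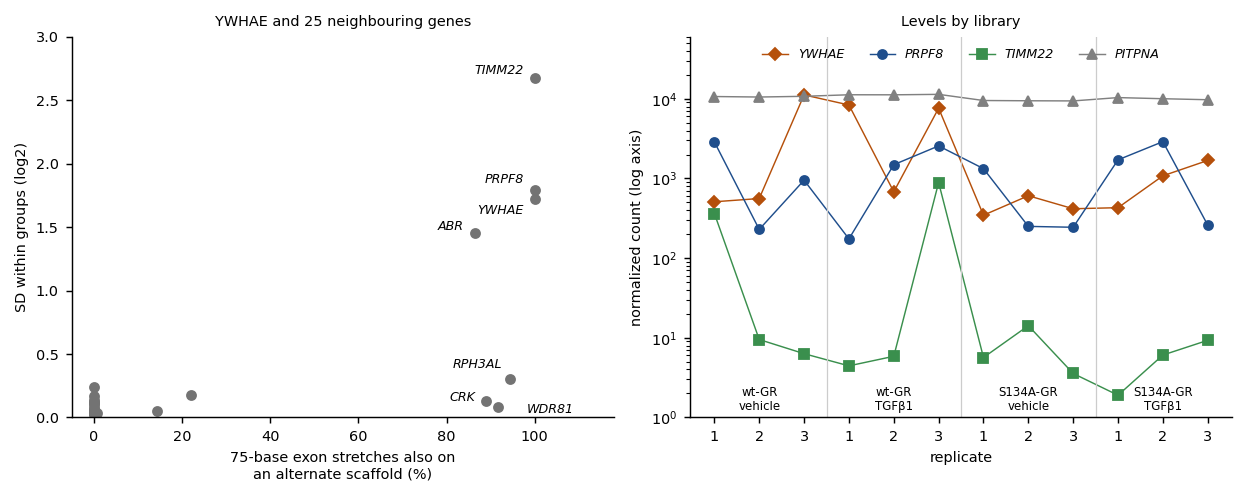
Left, SD within groups on the log2 scale (vertical axis) of YWHAE and 25 neighbouring genes against the percent of their 75-base exon stretches that also lie on an alternate scaffold (horizontal axis). Right, normalized counts (log axis) of YWHAE, PRPF8, TIMM22 and PITPNA in the 12 libraries, by group and replicate. The 3 genes at 100% have SDs from 1.72 to 2.67 and peak in different libraries, and PITPNA is level. The genes drawn at left have a mean of at least 100 normalized counts, which TIMM22 reached only through its peaks.

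Promoter sequences were searched for 3 motifs on both strands, in windows of 250 bases before to 50 after the gene start from RefSeq (GRCh38.p14), which held 6 of the 7 genes. The GR element, GNACA followed after 3 bases by TGTNC (in 0.390% of 35116 promoters), and the SMAD element GTCTAGAC (0.202%) were in none of the 6. The AP-1-like pattern TGANTCA (7.71%) allows any base in the middle, so it is looser than the AP-1 element. It matched in the promoter of SFN, in capitals here, 170 bases before the start, with T in the middle. The promoters of the other 5, YWHAB among them, did not hold it. A match describes the letters and not a bound site.
SFN, chr1:26862967-26862997, plus strand: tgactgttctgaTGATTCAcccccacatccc

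The partners named at the outset were measured in the same libraries. NR3C1, which encodes GR, was at 12729, 12139 and 10444 in wt-GR and 8516, 8971 and 8959 in S134A-GR vehicle libraries. It was lower in the mutant line under vehicle (log2 fold change -0.41, SE 0.07, limma adjusted p = 0.000120) and under TGFβ1 (-0.31, SE 0.07, adjusted p = 0.00134). MAP3K5 was at 2333, 2308 and 2079 in wt-GR and 958, 993 and 1063 in S134A-GR vehicle libraries, a log2 fold change of -1.16 (SE 0.07, adjusted p = 8.74e-09). Under TGFβ1 its difference between the lines was -1.095 (limma adjusted p = 1.64e-08). TGFβ1 itself lowered MAP3K5 in both lines. The log2 fold change was -0.44 in wt-GR (limma adjusted p = 0.000321) and -0.38 in S134A-GR cells (adjusted p = 0.00121). So transcripts of both partners were lower in the S134A-GR cells, while YWHAZ was not called. These are RNA levels. By western blot the paper reports that total GR protein was equal between the lines and that MAP3K5 protein was lower with S134A-GR.

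Of 42 genes for known 14-3-3 clients, NR3C1 and MAP3K5 among them, 27 were called under vehicle (11 higher and 16 lower in S134A-GR cells, 64.3%, beside 51.5% of all genes), with a median log2 fold change of -0.05. Under TGFβ1 25 were called (9 higher and 16 lower, 59.5% beside 48.8% of all genes). With only the 12468 genes of a mean of at least 100 normalized counts tested, 8322 were called under vehicle and 7993 under TGFβ1. These are larger shares than over all genes, so the counts between the lines are not by themselves particular to the clients. Lower under vehicle were YAP1 (-0.76), a Hippo effector that 14-3-3 keeps in the cytoplasm, and TBC1D4 (-0.94), an AKT substrate in glucose transport. HDAC9 (0.45) and ARAF (0.37) were higher. TGFβ1 changed 26 clients in wt-GR cells (6 up and 20 down, 61.9% beside 21.0% of all genes, median -0.12) and 20 in S134A-GR cells (6 up and 14 down, 47.6% beside 18.7%, median -0.03). The count of 26 was 15 without wt-GR vehicle replicate 2 and 17 without wt-GR TGFβ1 replicate 1. Of the 12468 genes tested alone, TGFβ1 changed 3924 in wt-GR and 3623 in S134A-GR cells, which are larger shares than over all genes. Among the clients that fell was LRRK2, with log2 fold changes of -0.77 in wt-GR and -0.58 in S134A-GR cells. ABL1, a tyrosine kinase held in the cytoplasm by 14-3-3, was among the fewer that rose, by 0.53 in both lines.

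Limma called 2 clients for a difference in response, beside 0.414% of all genes. RND3, whose product 14-3-3 takes from membranes, was at 3961, 4131 and 4005 in wt-GR vehicle libraries and 3415, 3440 and 3377 with TGFβ1. In S134A-GR cells it was at 2825, 2805 and 3051 under vehicle and 3278, 3232 and 3396 with TGFβ1, so the libraries moved down in 1 line and up in the other. The difference was 0.43 on the log2 scale (SE 0.06, limma adjusted p = 0.00717). RIN1, a RAS effector that 14-3-3 binds, fell in both lines, by 0.47 in wt-GR and 0.88 in S134A-GR cells on the log2 scale, and the difference was -0.42 (SE 0.08, adjusted p = 0.0328). Leaving out any single library kept the RND3 call (adjusted p at most 0.0335), while the RIN1 call held only without wt-GR vehicle replicate 3 or S134A-GR TGFβ1 replicate 2 and was lost in the other 10 fits (0.0602 to 0.119).

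Of 26 genes for kinases that phosphorylate 14-3-3 docking sites, 25 were tested, PRKD1 having 4 reads in all. Under vehicle 15 were called, 3 higher and 12 lower in S134A-GR cells, 60.0% beside 51.5% of all genes, with a median of -0.13. Under TGFβ1 3 were higher and 13 lower (64.0% beside 48.8%). With only the 12468 genes of a mean of at least 100 normalized counts tested, 8322 were called under vehicle and 7993 under TGFβ1. So these counts are not by themselves particular to the kinases. PRKD3, a protein kinase D, was lower by 1.04 on the log2 scale under vehicle, and CHEK1, the checkpoint kinase, fell by 0.72. TGFβ1 changed 8 of the kinases in wt-GR cells (3 up and 5 down, 32.0% beside 21.0% of all genes) and 7 of the 25 in S134A-GR cells (1 up and 6 down, beside 18.7% of all genes). The count of 8 was 5 without wt-GR vehicle replicate 2. Of the 12468 genes tested alone, TGFβ1 changed 3924 in wt-GR and 3623 in S134A-GR cells. These are larger shares than over all genes, so the TGFβ1 counts are also not by themselves particular to the kinases. SGK1, also a known target of GR, rose by 1.22 and 1.07 on the log2 scale. SIK2 was lower with TGFβ1 in both lines (-0.31 in wt-GR and -0.30 in S134A-GR cells). For the difference in response limma called 0 of the 25 (1 without wt-GR vehicle replicate 3), 3 had an unadjusted p under 0.05, edgeR called 0 and DESeq2 called 2.

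TRIM25, which encodes a ubiquitin ligase for 14-3-3σ, the product of SFN, was measured as well. It was lower in S134A-GR cells by 0.09 on the log2 scale under vehicle (limma adjusted p = 0.0364) and fell by 0.17 with TGFβ1 in wt-GR cells (adjusted p = 0.00233). It was not called between the lines under TGFβ1 (0.03, adjusted p = 0.572) or for TGFβ1 in S134A-GR cells (-0.05, adjusted p = 0.326).

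The genes whose profile over the 12 libraries was most like that of a member were found by the root mean square distance of log2 values, each centred on its own mean. For YWHAZ these were CEP55 (0.0256), SLC44A2 (0.0306) and BRE (0.0342), out of 12467 genes with a mean of at least 100 normalized counts. For SFN they were DVL2 (0.0405), SLC38A10 (0.0423) and AXIN1 (0.0428). YWHAZ and SFN lay 0.0689 apart, which put SFN at place 337 from YWHAZ and YWHAZ at place 159 from SFN. The next member from YWHAZ was YWHAH at 0.144, and YWHAQ stood at 0.353. The profiles share libraries and scaling, and YWHAZ itself varied by only 0.0641 about its mean, so a small distance here also reflects how little these genes moved.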

How the data were processed

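RNA was measured by RNA-seq in 12 libraries of MDA-MB-231 cells, 3 in each of 4 groups. The authors made TruSeq libraries, read them in paired-end mode, used Trimmomatic for trimming, HISAT2 for mapping to hg38 and featureCounts for gene counts, and scaled the counts by size factors (DESeq2 1.22.2, from the submitters' processing notes). The deposited values are therefore a signal, normalized counts, 1 per gene symbol and library. Annotation, strand setting and treatment of reads with several matches are not given in the sources used here.

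Every library's values were multiples of what 1 read is worth (100% within 0.001 reads), which gave back 56362036 to 129832227 reads per library. These totals are above the sequencing depth given in the study's methods, and how the mates of a pair were counted is not given in the sources used here, so a recovered read is the unit that was counted and may not be 1 sequenced fragment. A floor of 3 reads equals up to 4.89 normalized counts and covers counting error only. Symbols with at least 10 reads over the 12 libraries were tested with limma 3.58.1 (R 4.3.3) on log2 of the value plus 1, with 4 group means, a trend in the empirical Bayes step and Benjamini-Hochberg adjustment over 18579 genes. The scale understates changes of genes with low values. A call is an adjusted p under 0.05. The test, checked on simulated data, was compared with edgeR 4.0.16 and DESeq2 1.42.0 on the recovered reads, pseudocounts of 0.5 and 16, other filters, TMM scaling, no trend, only the groups compared, a replicate block, and each library left out. Chosen after seeing the data were the count without YWHAE and the canonical transcript length.

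Levels per kb used the exon length of GENCODE release 44 (hg38), to which 17687 symbols matched. Named besides the members were NR3C1, MAP3K5 and TRIM25, and from each gene list up to 3 called genes per direction with the largest change, a mean of at least 100 and no overlap. Genes of the chromosome 17 region and cell type markers were named for context, some after their values were seen. The 7 members and all lists were chosen with earlier results of these data known. Sequences come from hg38 and RefSeq. The coding stretch and promoter of YWHAZ and protein sequences are not shown, and some genes and 1 gene list of the rule are not reported here.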

Additional observations from a re-analysis of the deposited data

Results flagged for a closer look

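RND3 differed in its response to TGFβ1 between the lines by 0.43 on the log2 scale (limma test of the difference, adjusted p = 0.00717), falling in the wt-GR libraries and standing higher in each TGFβ1 library of the S134A-GR cells. RIN1 also differed in its response, by -0.42 (adjusted p = 0.0328), its fall being larger in S134A-GR than in wt-GR cells. Both are 14-3-3 clients from the list of 42, no such difference was called for the 7 members, and with 3 libraries in a group no single library was tested as an outlier.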

How the results depend on the processing

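Counts of called members between the lines were 4 in each main comparison and 4 to 5 in the alternatives, except that 0 passed when the size of the change also had to reach 1 on the log2 scale. For TGFβ1 in wt-GR cells the count of 2 became 1 with TMM scaling, edgeR, no trend, only the groups compared or the replicate block, became 3 (YWHAZ added) with only genes of a mean of at least 100 tested, and ran from 1 to 3 with a library left out. In S134A-GR cells the count of 3 became 1 with no trend or only the groups compared, and ran from 1 to 3 with a library left out. With the fold limit both were 0. The count for the difference in response was 0 throughout. The cause of these shifts was not tested.

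Calls of YWHAQ, YWHAB, YWHAG and YWHAH between the lines and of YWHAB for TGFβ1 held in all 22 alternatives. The difference in response of YWHAE turned to 0.81 with edgeR and 0.78 with DESeq2. With a library left out it ran from -1.66 to 0.56, and small values crossed 0 for the difference in YWHAH (-0.0086 to 0.0478), YWHAQ (-0.0500 to 0.0263), YWHAZ (-0.00508 to 0.0679) and SFN (-0.0680 to 0.00491), for TGFβ1 in wt-GR cells in YWHAH (-0.0234 to 0.0330), for TGFβ1 in S134A-GR cells in NR3C1 (-0.0798 to 0.00671), and between the lines under TGFβ1 in YWHAZ (-0.0488 to 0.0242) and SFN (-0.00572 to 0.0318).

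The share of YWHAZ in the summed level per kb of wt-GR vehicle cells was 31.8% by exon length, 54.0% by coding length and 36.6% by the canonical transcript. The median of the YWHAQ neighbours was -0.50 with 10 genes on each side.

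The replicate numbers did not pair the samples. Libraries with the same number had a mean correlation of deviations of 0.000891 (range -0.155 to 0.154 over 18 pairs). For different numbers it was -0.000325 (range -0.196 to 0.222 over 36 pairs), and 5 of 12 libraries correlated best with their own number. With the replicate block SFN in wt-GR cells had an adjusted p of 0.0588, RIN1 was not called for the difference in response (adjusted p = 0.0816, and 0.165 with no trend), and the counts of members in the other 4 comparisons were 4, 4, 3 and 0.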
